A study of Arabidopsis thaliana with 30 samples.

Results

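The genes described here encode the nuclear part of the respiratory chain from complex II to complex IV in Arabidopsis thaliana. They are 34 of the 27655 genes counted and were chosen by locus code from their known roles, not by their values: 7 genes of complex II, 15 of complex III, 2 of cytochrome c and 10 of complex IV, the copper chaperones of complex IV included. Earlier results of these data were known when the choice was made. All 34 passed the filter on low counts and were among the 21256 genes tested. SDH2-3 had between 0 and 18 counts in a library and passed it narrowly.

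Messenger RNA was sequenced from whole seedlings at 12 days of age, in ein2-5 and in Col-0 wild type (WT). ein2-5 is a mutant of EIN2, the membrane protein that carries the ethylene signal on towards the nucleus. Seedlings on agar with Murashige and Skoog medium and sucrose were overlaid with the same medium in liquid form, which held 20 µM antimycin A (AA) or nothing added (MS), and were taken after 3 h or 24 h, and untreated seedlings stayed without liquid. This makes 5 groups for each genotype (AA at 3 h and 24 h, MS at 3 h and 24 h, untreated), with 3 libraries in each of the 10 groups. The labels do not say whether replicates came from separate plates or harvests, so p-values measure the spread between these libraries, and they give the time as the batch.

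Complex II (succinate dehydrogenase) feeds electrons from succinate into the ubiquinone pool, complex III passes them from ubiquinol to cytochrome c, and complex IV (cytochrome c oxidase) passes them from cytochrome c to oxygen. Antimycin A blocks complex III at the quinone-reducing site of its cytochrome b, which is encoded in the mitochondrial genome. In plants the 2 subunits of the mitochondrial processing peptidase, which removes the targeting sequence of imported proteins, are also the core subunits of complex III. Most of these subunits are encoded by small families of similar genes, so members of a family could share some read pairs.

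Complex II holds the flavoprotein genes SDH1-1 (AT5G66760) and SDH1-2 (AT2G18450), the iron-sulphur genes SDH2-1 (AT3G27380), SDH2-2 (AT5G40650) and SDH2-3 (AT5G65165), and the membrane anchors SDH3-1 (AT5G09600) and SDH4 (AT2G46505). Complex III holds the peptidase genes MPPalpha-1 (AT1G51980), MPPalpha-2 (AT3G16480) and MPPbeta (AT3G02090), the cytochrome c1 genes CYC1-1 (AT3G27240) and CYC1-2 (AT5G40810), and the Rieske protein genes UCR1-1 (AT5G13430) and UCR1-2 (AT5G13440). Its small subunits are QCR6-1 (AT1G15120) and QCR6-2 (AT2G01090), QCR7-1 (AT4G32470) and QCR7-2 (AT5G25450), QCR8-1 (AT3G10860) and QCR8-2 (AT5G05370), QCR9 (AT3G52730) and AT2G40765. The cytochrome c genes are CYTC-1 (AT1G22840) and CYTC-2 (AT4G10040). Complex IV holds COX5b-1 (AT3G15640) and COX5b-2 (AT1G80230), COX5c-1 (AT2G47380), COX5c-2 (AT3G62400) and COX5c-3 (AT5G61310), COX6a (AT4G37830), COX6B (AT1G22450) and AT5G57815 of the same family, and the copper chaperones COX17-1 (AT3G15352) and COX17-2 (AT1G53030). RefSeq lists 21 of the 34 by locus code alone, and the final number in their names here only tells members of a family apart.

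Libraries held 21219655 to 32603880 counts. EIN2 transcript averaged 39.0 to 45.7 CPM (the counts of a gene relative to the scaled total of its library) in the ein2-5 groups, against 105 to 118 CPM in the WT groups. AOX1A, the alternative oxidase that takes electrons past complex III and a textbook marker of its block, was higher with AA than with MS at both times (log2 fold change averaged over genotypes 1.82 ± 0.10 at 24 h and 2.72 ± 0.10 at 3 h, adjusted p = 2.98e-14 and 7.5e-19). In ein2-5 with MS at 3 h, replicate 3 differed from replicates 1 and 2 more than any other replicates did (33.9 and 34.5 as chi-square of the counts over its degrees of freedom, against 20.4 or less).

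Promoter stretches are shown for the genes the results turn on, with COX6a as a complex IV gene of the highest level whose transcript did not pass any test. Each is the 140 bases that end 1 base before the annotated start of the gene, read 5′ to 3′ on the strand of the gene from the RefSeq genome of build TAIR10.1. Capitals mark site II elements, the letters TGGGCC or TGGGCT on either strand, so that AGCCCA and GGCCCA are the same elements on the other strand. Site II elements are known as binding sites of TCP factors in the promoters of plant genes for respiratory chain proteins.
SDH1-1: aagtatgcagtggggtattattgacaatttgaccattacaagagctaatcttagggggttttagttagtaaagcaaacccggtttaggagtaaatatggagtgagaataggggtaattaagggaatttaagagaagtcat
UCR1-1: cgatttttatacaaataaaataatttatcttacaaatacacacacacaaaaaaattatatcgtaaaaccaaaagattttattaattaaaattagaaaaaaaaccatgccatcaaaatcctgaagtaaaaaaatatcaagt
CYTC-1: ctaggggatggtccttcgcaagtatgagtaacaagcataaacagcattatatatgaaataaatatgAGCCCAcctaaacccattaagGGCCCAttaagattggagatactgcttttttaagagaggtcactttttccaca
CYTC-2: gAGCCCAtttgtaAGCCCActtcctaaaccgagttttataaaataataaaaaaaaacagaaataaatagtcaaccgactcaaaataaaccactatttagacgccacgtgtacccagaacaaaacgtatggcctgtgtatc
COX17-1: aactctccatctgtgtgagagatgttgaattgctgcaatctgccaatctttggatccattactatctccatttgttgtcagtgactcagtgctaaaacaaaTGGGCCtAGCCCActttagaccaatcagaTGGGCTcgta
COX6a: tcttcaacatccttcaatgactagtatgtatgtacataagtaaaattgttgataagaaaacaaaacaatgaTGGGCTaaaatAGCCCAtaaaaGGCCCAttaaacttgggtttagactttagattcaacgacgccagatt
The stretches lie at chr5:26653467-26653606, plus strand, for SDH1-1, chr5:4307571-4307710, minus strand, for UCR1-1, chr1:8079147-8079286, plus strand, for CYTC-1, chr4:6276808-6276947, plus strand, for CYTC-2, chr3:5179218-5179357, plus strand, for COX17-1, and chr4:17788835-17788974, minus strand, for COX6a.

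Over the 250 bases before each annotated start, 19 of the 34 genes (55.9%) held a site II element, against 19.2% of the promoters of all 27443 genes read the same way, and 15 (44.1%) held 2 or more, against 12.0%. TGGGCC was found in 44.1% of the 34 and 13.7% of all promoters, and TGGGCT in 47.1% and 12.3%. A match is a run of letters in this window and no measured site. For some of the 34, CYTC-1, UCR1-2 and COX17-2 among them, the window also overlaps another annotated gene. CYTC-1 had its elements 74 to 69 and 53 to 48 bases before the start, CYTC-2 had both of its elements farther away, at 139 to 134 and 127 to 122 bases, and COX17-1 had 3 within 39 bases. SDH1-1 and UCR1-1 had no match in the window, while UCR1-2, whose stretch is not shown, had 1 TGGGCT at 66 to 61 bases. The mitochondrial dysfunction motif, known from genes that respond to a block of the chain, was in 0 of the 34 promoters and in 1.75% of all promoters. The telo-box AAACCCTA was in 1 of the 34 (2.94%, MPPbeta), against 4.49%, and the G-box CACGTG in 5 (14.7%), against 6.49%. These motifs were searched on both strands and do not overlap site II, while in AT5G57815 1 palindromic stretch was counted on each strand.

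AA was compared with MS to see how the transcripts of the inhibited chain stand while complex III is blocked. After 24 h, averaged over ein2-5 and WT, 9 of the 34 genes were higher with AA and 1 was lower (29.4% called), where 23.4% of all genes tested were called and 10.9% were called higher. The share called is near that of all genes. The share called higher was 26.5%. Changes were small: 30 of the 34 were positive, the median log2 fold change was 0.13 (0.00 over all genes tested), and for 33 of the 34 the change with 2 SE on either side lay within 2-fold. The 9 higher genes were SDH1-1 and SDH4 of complex II, MPPalpha-1, UCR1-1 and UCR1-2 of complex III, both cytochrome c genes, and COX5b-2 and COX17-1 of complex IV. The lower one was SDH1-2. Of these 10 calls 6 held in all 19 alternatives, 1 of which is a stricter threshold on the same fit: SDH1-1, UCR1-1, UCR1-2, CYTC-1, CYTC-2 and COX17-1. In whole seedlings a smaller share of a cell type and less RNA per cell cannot be told apart. All 10 leaf and all 10 root markers were lower with AA in the same comparison, and none of them was at 0. Summed leaf markers ranged from 52280 to 62390 CPM in the AA libraries, against 61330 to 74140 CPM in the MS libraries, and summed root markers from 46.6 to 76.9 CPM, against 86.7 to 149 CPM. Their part in the changes below was not tested.

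**Figure D1:**
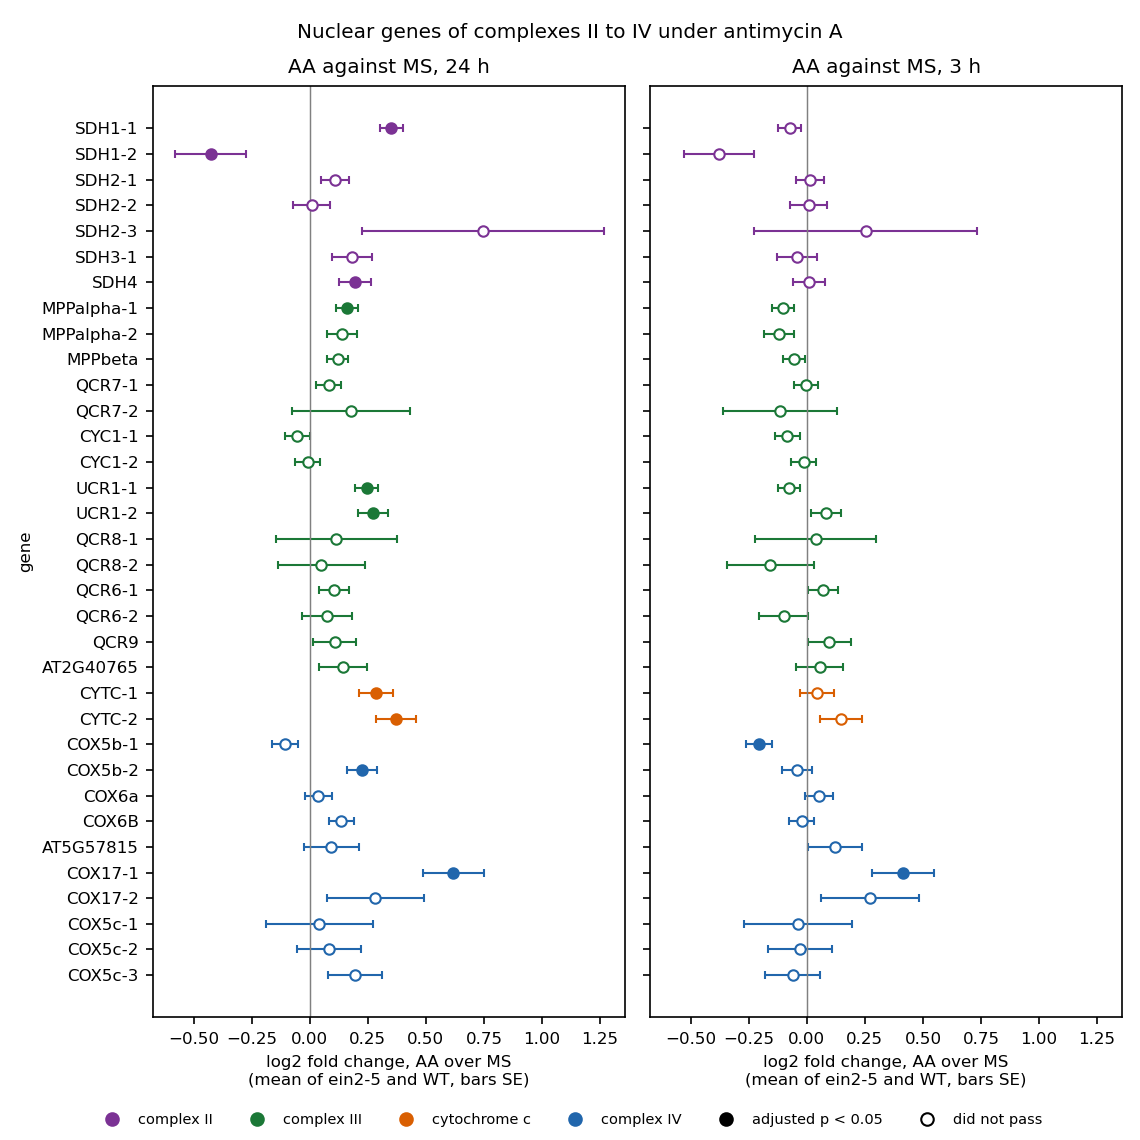
Log2 fold change of AA over MS for each of the 34 genes at 24 h (left) and 3 h (right), averaged over ein2-5 and WT, with bars of 1 SE. Filled points passed an adjusted p under 0.05: 9 higher and 1 lower at 24 h, and 1 higher (COX17-1) and 1 lower (COX5b-1) at 3 h. Most points at 24 h lie right of 0, while SDH2-3 has the widest bar.

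In complex II the flavoprotein, which binds and oxidises succinate, had the clearest change. SDH1-1 (AT5G66760, chr5:26653607-26657696, plus strand) had 239, 235 and 222 CPM in the ein2-5 libraries with AA at 24 h, against 150.2, 174 and 178 CPM with MS. In WT it had 184, 210.2 and 212 CPM with AA, against 179, 174 and 164 CPM with MS. Every AA library lay above every MS library of its genotype, and the gap was wider in ein2-5. Averaged over genotypes SDH1-1 rose by 0.35 ± 0.05 (log2, SE; 1.27-fold; adjusted p = 2.79e-06, edgeR's quasi-likelihood test), and its adjusted p stayed at 0.000197 or less in all alternatives. The second flavoprotein gene moved the other way at a far lower level. SDH1-2 had 2.26, 2.67 and 2.6 CPM with AA, against 4.22, 3.05 and 2.58 CPM with MS in ein2-5, and 2.16, 2.22 and 2.54 against 2.44, 4.12 and 3.04 CPM in WT. The groups overlapped in both genotypes. It fell (-0.43 ± 0.15, adjusted p = 0.0431), but the call was lost in 8 of the 12 fits that left out 1 library, which were those without replicate 1, 2 or 3 of ein2-5 with AA, replicate 1 of ein2-5 with MS, replicate 1 or 2 of WT with AA, or replicate 2 or 3 of WT with MS (adjusted p up to 0.168).

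The membrane anchor SDH4, which with SDH3 holds the ubiquinone site, had 62, 65.4 and 58.7 CPM with AA, against 55.4, 52.8 and 59.9 CPM with MS in ein2-5, and 66.2, 55 and 57.2 against 52.1, 50.4 and 48 CPM in WT. The groups overlapped in ein2-5 and did not in WT. SDH4 rose by 0.20 ± 0.07 (adjusted p = 0.0394), and the call was lost in 7 of 12 such fits, without replicate 1 or 2 of ein2-5 with AA, replicate 1 or 2 of ein2-5 with MS, replicate 1 of WT with AA, or replicate 2 or 3 of WT with MS (adjusted p up to 0.133). The iron-sulphur subunit genes SDH2-1 (0.11 ± 0.06) and SDH2-2 (0.01 ± 0.08) and the anchor SDH3-1 (0.18 ± 0.08) did not pass. SDH2-3, known from seeds, stood at 0.74 ± 0.52, which its few counts leave too wide to read.

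In complex III the Rieske iron-sulphur protein, which hands electrons to cytochrome c1, was higher from both of its genes. UCR1-1 (AT5G13430, chr5:4305106-4307570, minus strand) had 116, 118 and 122 CPM with AA at 24 h, against 99.4, 102 and 104 CPM with MS in ein2-5, and 119, 104 and 101 against 86.1, 87.7 and 95.4 CPM in WT. UCR1-2 (AT5G13440, chr5:4307973-4310273, minus strand) had 146, 154 and 146 CPM with AA, against 97.5, 120.5 and 134 CPM with MS in ein2-5, and 139, 138 and 139 against 123, 121 and 117 CPM in WT. All AA libraries lay above the MS libraries of their genotype for both genes. UCR1-1 rose by 0.24 ± 0.05 (adjusted p = 0.000357) and UCR1-2 by 0.27 ± 0.06 (adjusted p = 0.00197). The 2 genes are neighbours on the same strand with 402 bases between them, and their values were not whole in 53.3% and 66.7% of the libraries, so some read pairs were divided between them or with other copies. Their single values are uncertain to that extent. Values were also not whole in 46.7% of the libraries for MPPalpha-1, 40% for COX5b-2 and 30% for SDH1-1. For the other genes that passed in this comparison the share was 6.67% or less. UCR1-2 also shares 20 exon bases with AT5G13450, a subunit gene of ATP synthase that stood at 0.09 ± 0.05 (adjusted p = 0.22).

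The processing peptidase gene MPPalpha-1 had 258, 264 and 262 CPM with AA at 24 h, against 237, 218 and 241 CPM with MS in ein2-5, and 256, 231 and 227 against 222, 209 and 213 CPM in WT. No AA library lay below an MS library of its genotype. MPPalpha-1 rose by 0.16 ± 0.05 (adjusted p = 0.0156), and the call was lost without replicate 1 of WT with AA or replicate 2 of ein2-5 with MS (adjusted p up to 0.0601). Its partner MPPbeta (0.12 ± 0.05, adjusted p = 0.0584) and its paralogue MPPalpha-2 (0.14 ± 0.06) did not pass. Neither did the cytochrome c1 genes, CYC1-1 (-0.05 ± 0.05) and CYC1-2 (-0.01 ± 0.05), whose changes with 2 SE on either side lay within 1.5-fold. The QCR genes and AT2G40765, a gene with no named product in RefSeq, lay between 0.05 (QCR8-2) and 0.18 (QCR7-2), and none of them passed.

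Cytochrome c, the carrier between complexes III and IV, was higher from both genes. CYTC-1 (AT1G22840, chr1:8079287-8080574, plus strand) had 155, 150.2 and 149.6 CPM with AA at 24 h, against 100.2, 119 and 142 CPM with MS in ein2-5, and 154, 133 and 145 against 124, 114 and 129 CPM in WT. CYTC-2 (AT4G10040, chr4:6276948-6278622, plus strand) had 41.2, 50.1 and 43 CPM with AA, against 30.3, 32 and 43 CPM with MS in ein2-5, and 49.5, 35.7 and 47.3 against 30.9, 33.8 and 36.3 CPM in WT. The groups did not overlap for CYTC-1, while for CYTC-2 1 library of a group crossed into the other in each genotype. CYTC-1 rose by 0.29 ± 0.07 (adjusted p = 0.00397) and CYTC-2 by 0.37 ± 0.09 (adjusted p = 0.00213), both in all 19 alternatives. CYTC-1 shares 93 of its 734 exon bases with AT1G22850 on the other strand, and counting did not use strand. AT1G22850 itself fell by 0.16 (SE 0.05, adjusted p = 0.0163).

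In complex IV the copper chaperone COX17-1 had the largest log2 fold change of the genes that passed. COX17-1 (AT3G15352, chr3:5179358-5180665, plus strand), known from yeast to carry copper towards the catalytic subunits, had 11.4, 12.4 and 9.45 CPM with AA at 24 h, against 5.27, 7.13 and 10.1 CPM with MS in ein2-5, and 15.6, 13 and 13.4 against 9.48, 8.97 and 7.94 CPM in WT. The groups did not overlap in WT, and 1 MS library overlapped in ein2-5. It rose by 0.62 ± 0.13 (1.53-fold, adjusted p = 0.000713). Of its 1308 exon bases 754 also belong to AT3G03095, a noncoding RNA on the other strand that was not among the genes counted. Counting did not use strand, so reads of the 2 over these bases cannot be told apart here. COX17-1 shares 24 more with MT3 (AT3G15353), a metallothionein gene that stood at -0.17 ± 0.15 (adjusted p = 0.479). COX17-2 stood at 0.28 ± 0.21 (adjusted p = 0.37).

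COX5b-2, of a subunit known in mammals to bind zinc, had 57.2, 57.1 and 59.7 CPM with AA, against 50.5, 43.7 and 57.9 CPM with MS in ein2-5, and 64.2, 50.4 and 55.9 against 50.3, 44.3 and 48.6 CPM in WT. The groups overlapped in ein2-5 through 1 MS library and were apart in WT. COX5b-2 rose by 0.22 ± 0.06 (adjusted p = 0.011), and without replicate 1 of WT with AA its adjusted p was 0.0533. Its paralogue COX5b-1 stood at -0.11 ± 0.06 and did not pass. COX6a (0.04 ± 0.06), COX6B (0.14 ± 0.05), AT5G57815 (0.09 ± 0.12) and the 3 COX5c genes (0.04 to 0.20) did not pass either.

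**Figure D2:**
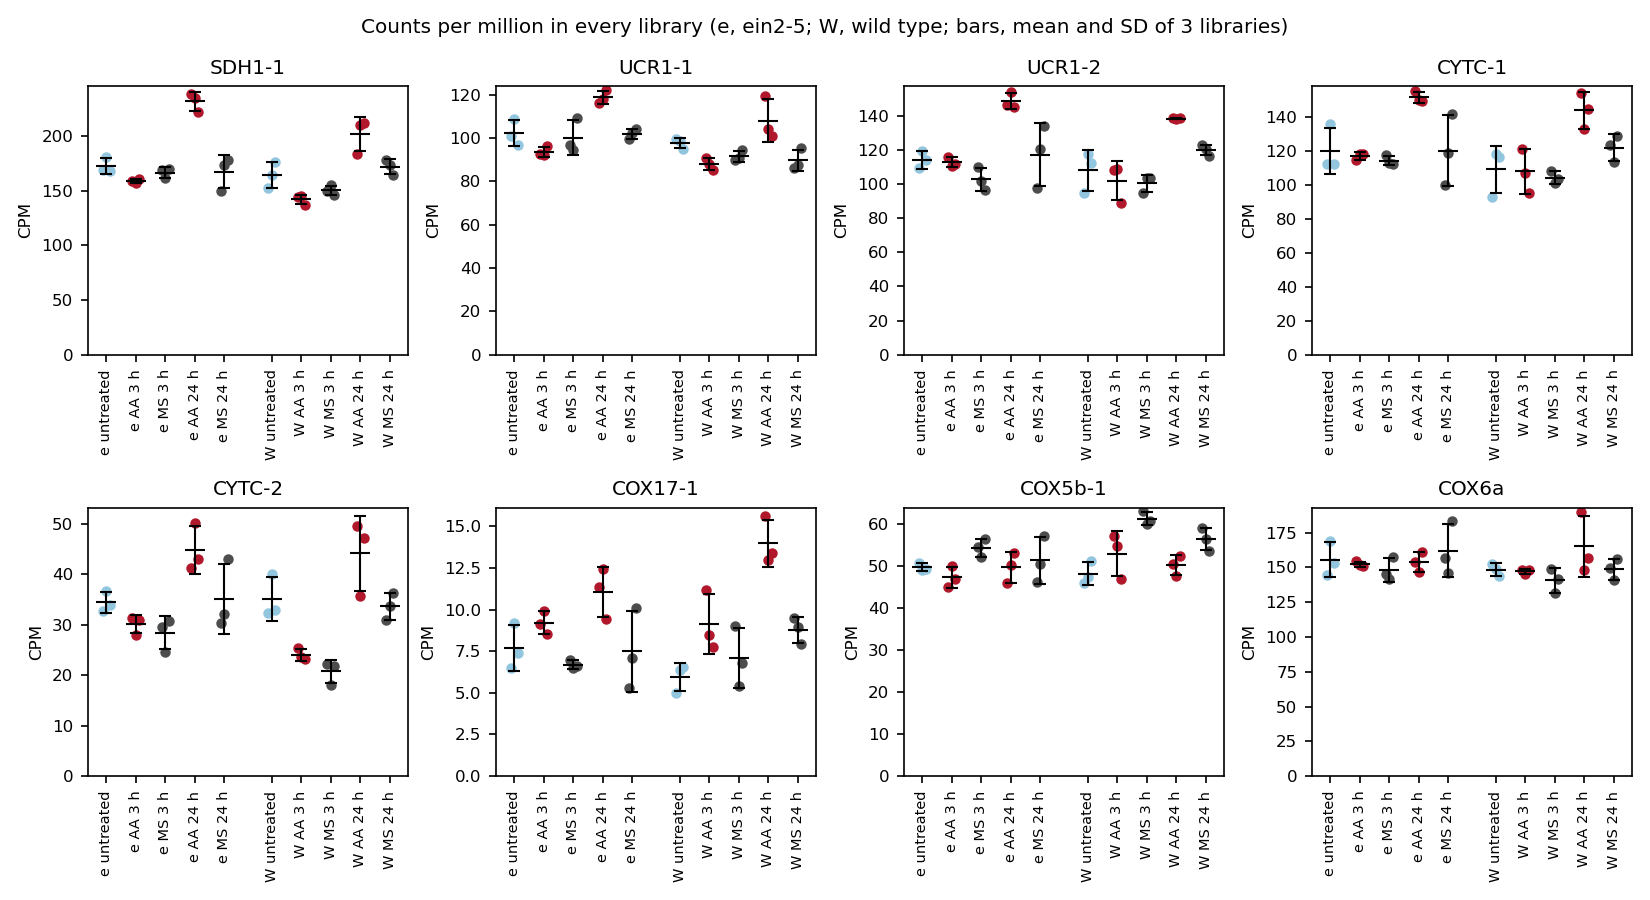
CPM of 8 genes in each of the 30 libraries, by group (e, ein2-5; W, WT), with the mean and SD of 3 libraries. AA libraries are red, MS libraries grey and untreated libraries blue, and axes start at 0. SDH1-1, UCR1-1, UCR1-2 and both cytochrome c genes have their highest group means with AA at 24 h in both genotypes, while COX6a is level across groups and CYTC-2 is lowest with MS at 3 h in WT.

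Within 1 genotype fewer genes passed at 24 h. In ein2-5, 5 of 34 were higher and 0 lower (14.7%; 13.9% of all genes tested were called): SDH1-1 (0.47 ± 0.07, adjusted p = 1.5e-05), UCR1-1 (0.22 ± 0.07, adjusted p = 0.0298), UCR1-2 (0.34 ± 0.09, adjusted p = 0.00992), CYTC-1 (0.34 ± 0.10, adjusted p = 0.0266) and COX17-1 (0.57 ± 0.19, adjusted p = 0.0405). SDH1-1 held without each library. The calls of UCR1-1 and CYTC-1 were lost without any of the 3 AA libraries or MS replicate 1 or 2, that of UCR1-2 without AA replicate 2 or MS replicate 1, and that of COX17-1 without AA or MS replicate 1 or 2 (adjusted p up to 0.258 over these 4 genes).

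In WT at 24 h, 4 of 34 were higher and 0 lower (11.8%; 13% of all genes): SDH1-1 (0.23 ± 0.07, adjusted p = 0.0261), UCR1-1 (0.27 ± 0.07, adjusted p = 0.00819), CYTC-2 (0.39 ± 0.12, adjusted p = 0.035) and COX17-1 (0.67 ± 0.18, adjusted p = 0.0138). None of the 4 held without every library. SDH1-1 was lost without AA or MS replicate 2 or 3, UCR1-1 without AA or MS replicate 1, CYTC-2 without AA replicate 1 or 3 or MS replicate 1 or 2, and COX17-1 without AA replicate 1 or MS replicate 3 (adjusted p up to 0.188).

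Whether AA acted differently in the genotypes was tested as an interaction. None of the 34 passed at 24 h (0.296% of all genes) or at 3 h (0.0706%) in edgeR's test, where 2 and 1 had an unadjusted p under 0.05 and DESeq2 called 0 at both times. The largest difference at 24 h among genes of at least 5 CPM was that of COX5c-1 (0.43 ± 0.46), and that of SDH1-1 was 0.24 ± 0.10 (adjusted p = 0.413). At 24 h the difference with 2 SE on either side lay within 1.5-fold for 24 of the 34 genes, and the others are left wider by their spread.

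At 3 h the chain genes were close to level between AA and MS. None passed in ein2-5 (12.8% of all genes called) or in WT (10% of all genes), while 5 and 1 had an unadjusted p under 0.05, and DESeq2 made 0 calls in each. For 25 of 34 genes in ein2-5 and 26 of 34 in WT the change with 2 SE on either side lay within 1.5-fold. Averaged over genotypes 2 passed (5.88%; 18.7% of all genes). COX17-1 had 9.14, 9.94 and 8.56 CPM with AA, against 6.98, 6.51 and 6.62 CPM with MS in ein2-5, and 11.2, 8.48 and 7.76 against 9.01, 5.44 and 6.8 CPM in WT. The groups did not overlap in ein2-5 and did in WT. COX17-1 rose by 0.41 ± 0.13 (adjusted p = 0.0279). It did not pass without replicate 2 of ein2-5 with AA, replicate 1 of WT with AA, or replicate 2 or 3 of WT with MS (adjusted p up to 0.0997). COX5b-1 had 45.1, 49.9 and 46.9 CPM with AA, against 54.5, 52.2 and 56.5 CPM with MS in ein2-5, and 57.1, 54.8 and 46.9 against 63.1, 60.1 and 60.8 CPM in WT. Every AA library lay below the MS libraries of its genotype. COX5b-1 was lower with AA than with MS by 0.21 on the log2 scale (SE 0.06, adjusted p = 0.00794), and without replicate 3 of WT with AA the adjusted p was 0.0528. Its AA means at 3 h were 47.3 CPM in ein2-5 and 52.9 CPM in WT, against 49.75 and 48.25 CPM untreated. AA at 3 h was not tested against untreated. Root markers were lower with AA already at 3 h, 6 of 10 averaged over genotypes, and 1 of 10 leaf markers was lower.

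The change of the AA effect between 3 h and 24 h was tested within each genotype. In ein2-5, 3 of 34 effects were higher at 24 h and 0 lower (8.82%; 10.5% of all genes): SDH1-1 (0.54 ± 0.10, adjusted p = 0.000383), MPPalpha-1 (0.33 ± 0.10, adjusted p = 0.0262) and UCR1-1 (0.32 ± 0.10, adjusted p = 0.0345). At 3 h in ein2-5 SDH1-1 had 159, 157 and 161 CPM with AA, against 169, 161 and 170.1 CPM with MS, where the highest AA library was level with the lowest MS library. MPPalpha-1 had 197, 205 and 209.8 against 215, 212 and 255 CPM and UCR1-1 92.8, 92.1 and 96.4 against 96.7, 94.4 and 109 CPM. MS replicate 3, which stood apart, was the highest for both. The calls of MPPalpha-1 and UCR1-1 were lost without it (adjusted p up to 0.13 and 0.14 over the libraries left out), as well as without AA replicate 1 or 2 at 3 h, any AA replicate at 24 h or MS replicate 2 at 24 h, and for UCR1-1 MS replicate 1 at 24 h. SDH1-1 held in all 19 alternatives.

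In WT the effect of UCR1-1 was higher at 24 h (0.33 ± 0.10, adjusted p = 0.0395; 1 of 34, 2.94%, against 6.5% of all genes). UCR1-1 had 90.6, 88 and 85.3 CPM with AA at 3 h, against 89.7, 90.8 and 94.3 CPM with MS, so the groups overlapped there. The call was lost in 9 of the 12 fits that left out 1 library, that is all but those without AA replicate 2 or 3 or MS replicate 3 at 24 h (adjusted p up to 0.181). SDH1-1 stood at 0.31 ± 0.10 in WT (adjusted p = 0.0588).

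MS was set against untreated seedlings to see what the liquid overlay did by itself, and this carries the time and the labelled batch with it, which cannot be told apart. In ein2-5, COX5c-3, a small subunit of complex IV, was the only one of the 34 to pass at 3 h (2.94%; 31.7% of all genes) and at 24 h (2.94%; 15% of all genes). COX5c-3 had 15.9, 16.4 and 12.7 CPM untreated, 13.7, 10.6 and 9.09 CPM with MS at 3 h and 8.04, 9.77 and 12 CPM with MS at 24 h. The untreated libraries overlapped those of 3 h and not those of 24 h. COX5c-3 fell at 3 h (-0.43 ± 0.17, adjusted p = 0.0474) and at 24 h (-0.59 ± 0.17, adjusted p = 0.0132). Both calls were lost without untreated replicate 1 or 2, the first also without MS replicate 2 or 3 and the second without MS replicate 1 (adjusted p up to 0.239 and 0.109).

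In WT, 2 of 34 passed at 3 h (5.88%; 33.2% of all genes), both in all alternatives. CYTC-2 had 32.4, 40.1 and 32.9 CPM in untreated WT, 22.3, 18.1 and 21.9 CPM with MS at 3 h and 30.9, 33.8 and 36.3 CPM with MS at 24 h. The 3 h libraries lay below the other 6. CYTC-2 fell at 3 h (-0.76 ± 0.13, 0.592-fold, adjusted p = 1.93e-05) and was higher at 24 h than at 3 h (0.69 ± 0.13, adjusted p = 0.000148). COX5b-1 had 46, 47.5 and 51.3 CPM in untreated WT, 63.1, 60.1 and 60.8 CPM with MS at 3 h and 59.1, 56.5 and 53.7 CPM with MS at 24 h, with no overlap between untreated and either time. It rose by 0.35 ± 0.08 at 3 h (adjusted p = 0.00101) and by 0.23 ± 0.08 at 24 h (adjusted p = 0.0463). At 24 h 2 of 34 passed (5.88%; 19.9% of all genes), the other being COX17-1 with 9.48, 8.97 and 7.94 CPM with MS, against 5.01, 6.35 and 6.57 CPM untreated, apart in all libraries (0.55 ± 0.19, adjusted p = 0.0405). Both 24 h calls were lost without MS replicate 1 or 2 or untreated replicate 1 or 2, that of COX17-1 also without untreated replicate 3 (adjusted p up to 0.173).

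Between 24 h and 3 h in MS, 3 of 34 were higher and 0 lower in WT (8.82%; 18.4% of all genes): CYTC-2 as above, MPPbeta (318, 323 and 323 CPM at 24 h, against 267, 285 and 289 CPM at 3 h) and UCR1-2 (123, 121 and 117 CPM at 24 h, against 94.5, 104 and 103 CPM at 3 h). Times did not overlap for any of the 3. MPPbeta rose by 0.20 ± 0.07 (adjusted p = 0.0338) and UCR1-2 by 0.26 ± 0.09 (adjusted p = 0.0478). The call of UCR1-2 was lost without any 1 of the 6 libraries and that of MPPbeta without any but MS replicate 3 at 3 h (adjusted p up to 0.186). In ein2-5, 0 of 34 passed (20.5% of all genes), with 4 at an unadjusted p under 0.05, 0 by DESeq2 and up to 2 when a library was left out. The effect of MS did not pass as different between genotypes for any of the 34, at 3 h (1.47% of all genes) or at 24 h (4.01%), with 3 at an unadjusted p under 0.05 at each time, 0 by DESeq2 and up to 1 when a library was left out.

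The genotypes were compared within each condition. Between ein2-5 and WT no gene of the 34 passed untreated (4.33% of all genes), with AA at 3 h (7.82%) or with AA at 24 h (9.91%), with 2, 4 and 1 at an unadjusted p under 0.05. DESeq2 called 0, 0 and 1. In these conditions 28, 29 and 25 of the 34 differences were positive, that is higher in ein2-5 (median log2 fold change 0.09, 0.11 and 0.07). With MS 27 were positive at 3 h and 18 at 24 h (median 0.07 and 0.03). This lean was not tested. With MS at 3 h 2 of 34 were higher and 0 lower in ein2-5 (5.88%; 10.4% of all genes). CYTC-2 had 29.6, 24.7 and 30.8 CPM in ein2-5, against 22.3, 18.1 and 21.9 CPM in WT (0.45 ± 0.13, adjusted p = 0.0223). MPPbeta had 309, 314 and 373 CPM in ein2-5, against 267, 285 and 289 CPM in WT (0.24 ± 0.07, adjusted p = 0.0137). Neither pair of groups overlapped, and the highest value of both genes was in replicate 3 of ein2-5, which stood apart. Both calls were lost without it. That of MPPbeta was also lost without WT replicate 1, and that of CYTC-2 without ein2-5 replicate 1 or WT replicate 2 (adjusted p up to 0.181). With MS at 24 h QCR7-1, a small subunit of complex III, was higher in ein2-5 (1 of 34, 2.94%; 11.4% of all genes), with 168, 141 and 162 CPM, against 126, 122 and 134 CPM in WT. No library overlapped. The difference was 0.30 ± 0.07 (adjusted p = 0.00692), and without replicate 1 of ein2-5 the adjusted p was 0.0549.

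Levels were compared between genes as CPM per kb of annotated exon, averaged over the 30 libraries. They ran from 193 for COX6a, 165 for CYTC-1, 156 for MPPbeta, 149.6 for QCR7-1 and 128 for QCR8-1 down to 1.51 for SDH1-2, 1.28 for QCR7-2 and 0.218 for SDH2-3. Within complex II the flavoprotein SDH1-1 stood at 67.9 CPM per kb, the anchors SDH3-1 and SDH4 at 45.1 and 42.1, and the iron-sulphur genes SDH2-1 and SDH2-2 at 23.9 and 11.1. Genes of a family had unequal shares of the summed CPM per kb of that family. SDH1-1 held 97.1 to 98.7% of the SDH1 level per kb in the 10 groups, QCR7-1 98.8 to 99.4% of QCR7, QCR6-1 84.7 to 88.9% of QCR6, MPPalpha-1 78.4 to 81.0% of MPPalpha and CYTC-1 77.5 to 84.8% of cytochrome c. UCR1-1 and UCR1-2 were close to even (46.9 to 53.5% for UCR1-1), as were COX5b-1 and COX5b-2 (46.0 to 57.1% for COX5b-1). COX17-1 held 35.5 to 47.8% of the COX17 level per kb, with 1308 exon bases against 574 for COX17-2. Exon bases are the union over all annotated transcripts of a gene, and for COX17-1 and COX5c-3 this union fills the whole gene. The share of COX17-1 rests on that length. In CPM without the length, COX17-1 had the higher mean of the 2 genes in all 10 groups (14 against 6.8 CPM in WT with AA at 24 h). Over the 10 group means COX17-1 ranged most among genes above 5 CPM (2.34-fold from lowest to highest), followed by CYTC-2 (2.15-fold), while CYC1-2 (1.13-fold) and COX6a (1.17-fold) ranged least.

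**Figure D3:**
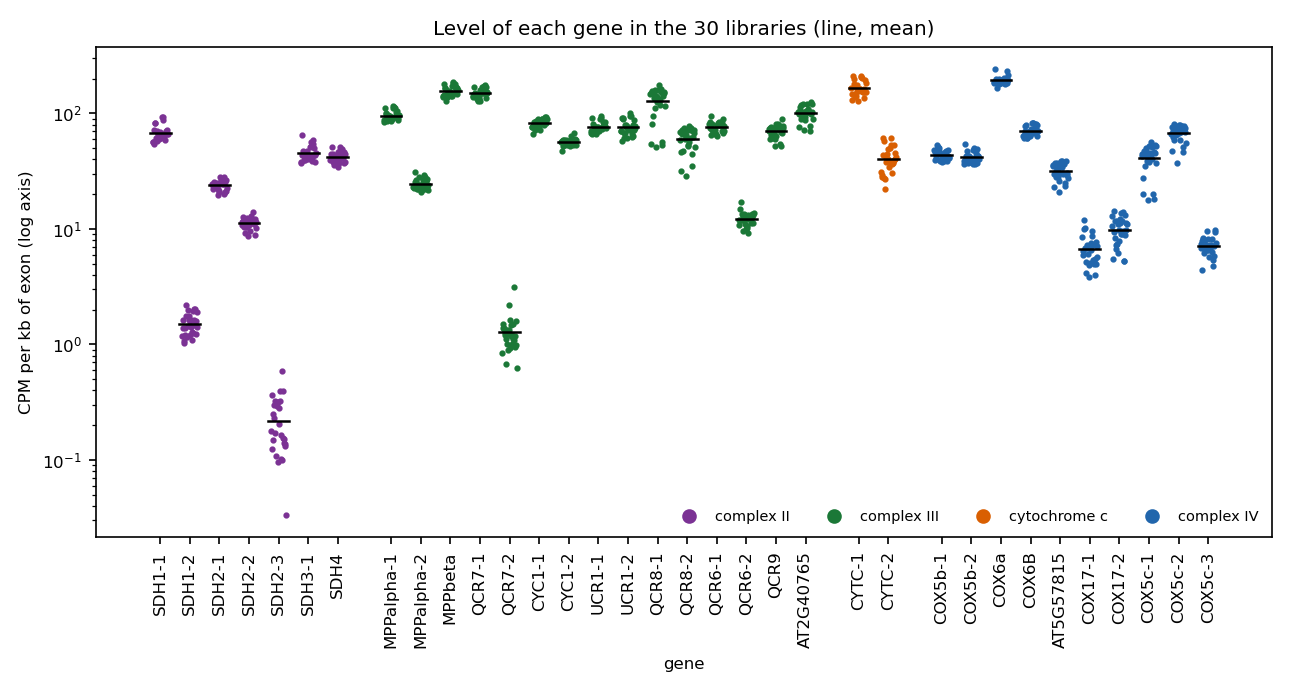
Level of each gene as CPM per kb of exon in the 30 libraries, on a log axis, with a line at the mean. COX6a and CYTC-1 lie at the top, and SDH1-2, QCR7-2 and SDH2-3 lie at 1.51 or below. The 1 library with no SDH2-3 count is not drawn.

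Genes with short exon length varied together between replicates. Among the 31 genes of at least 5 CPM, the 16 with shorter exons had a median log2 deviation from their group mean of -0.29 in replicate 1 and 0.28 in replicate 3 of ein2-5 with MS at 24 h, against -0.08 and 0.09 for the 15 with longer exons. In ein2-5 with MS at 3 h the short genes of replicate 3 stood at -0.20 and the long ones at 0.13. Short genes were also low in replicate 1 of untreated WT (-0.20) and replicate 3 of WT with AA at 3 h (-0.18). QCR8-1, COX5c-1, COX17-2 and QCR8-2 varied most among the 31 genes, with a median SD within groups of 27.2%, 22.5%, 22.0% and 21.4% of the mean. In ein2-5 with MS at 24 h CYTC-1 and CYTC-2 were lowest in replicate 1 and highest in replicate 3. So were UCR1-2 and COX17-1 of the longer class, and the MS side of the 24 h comparisons of these genes is spread. For SDH1-1, of 2546 exon bases, replicate 1 was low and replicates 2 and 3 close. The part of exon length in the results was not tested.

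**Figure D4:**
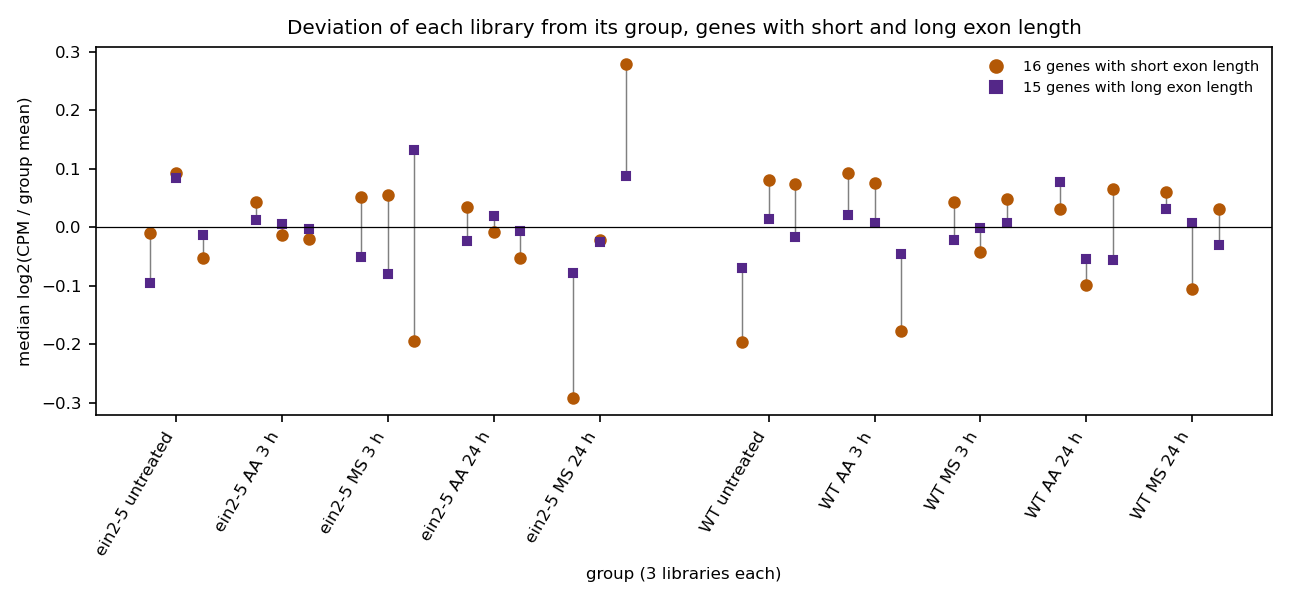
Median log2 deviation of each library from its group mean for the 16 genes with short and the 15 with long exon length, by group, with a line joining the 2 values of a library. Short genes spread from -0.29 to 0.28 in ein2-5 with MS at 24 h, and in ein2-5 with MS at 3 h the 2 classes part in replicate 3.

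The rest of the chain was counted in the same comparison, AA against MS at 24 h averaged over genotypes, where 23.4% of all genes tested were called and 10.9% were called higher. Other subunits and assembly factors of complex IV and of cytochrome c maturation had 7 of 13 tested genes higher and 0 lower (median 0.24), among them HCC1 (AT3G08950, 0.81 ± 0.08, adjusted p = 1.39e-08), a relative of the copper carrier SCO1, and COX15 (AT5G56090, 0.68 ± 0.10, adjusted p = 2.37e-06), known from yeast to act in haem a synthesis. HCC2 (AT4G39740), a relative of HCC1, was already higher at 3 h (1.13 ± 0.13, adjusted p = 7.27e-08). Other complex II genes had 2 of 8 higher (median 0.21), including the assembly factor SDHAF2 (AT5G51040, 0.25 ± 0.05, adjusted p = 0.000586). Nuclear complex I had 3 of 34 higher and 2 lower (median 0.04), and ATP synthase 3 of 12 higher and 0 lower (median 0.11). The share called was 53.8% for the complex IV list, 25% for complex II and for ATP synthase, near that of all genes, and 14.7% for complex I, below it. The median was 0.13 for the 34 genes of complexes II to IV and 0.00 for all genes tested. Cell cycle markers were lower for 4 of 8 averaged over genotypes. Taken alone, ein2-5 had 5 of 8 lower (median -0.67; 13.9% of all genes called) and WT 0 of 8 (median -0.17; 13%). The interaction of AA with genotype at 24 h called 0 of these 8. Of the 8 seed storage markers 1 was tested and did not pass.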

How the data were processed

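Poly(A) RNA was sequenced in read pairs without strand information in the counting. The authors deposited 1 matrix of 27655 genes by 30 libraries, and its values are expected counts made with featureCounts 2.0.3, where read pairs that map to several places were shared in fractions, per the file header. Of these values 6.31% were not whole, and they were rounded. HISAT2, SAMtools and the build TAIR10 are named in the submitters' processing notes. The command in the file header ignores strand and sets no option to count pairs that overlap several genes, which featureCounts leaves out by default. Near-identical copies and overlapping genes are therefore uncertain, and 17 of the 34 genes share exon bases with another annotated gene. Gene positions, exon lengths and promoters came from RefSeq's TAIR10.1, where all 34 locus codes matched, 21 of them with no other symbol.

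In edgeR 4.0.16 (R 4.3.3) genes were kept by filterByExpr with a minimum count of 10, and TMM factors lay between 0.958 and 1.06. One model with a mean for each group took in all 30 libraries, and its 23 contrasts used the quasi-likelihood test of edgeR. The threshold was an adjusted p under 0.05 (Benjamini-Hochberg, 21256 genes). CPM values are TMM-scaled and carry no prior count. The SE of a change was derived from the same fit, as the absolute log2 fold change divided by the square root of its quasi-likelihood F statistic. Total counts limit the precision of low genes. The fit was first tested on simulated data.

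The members, the marker and pathway lists and the alternatives were chosen with earlier results of these data known. Values in every library are given for genes that passed between AA and MS, between genotypes or in an interaction, and for up to 3 genes per direction between MS and untreated, and other lists have up to 2 examples by adjusted p. Pairing of replicate numbers was checked: the mean correlation of residuals was -0.00409 for the same number and 0.00224 for other numbers, and in 0 of 15 comparisons were all 3 pairs over 0.1, so samples were taken as unpaired. Alternatives were RLE factors, no count filter, DESeq2 1.42.0, an adjusted p under 0.01, a replicate block, organelle genes left out, a fit of the compared libraries alone and each library left out. Tables and figures used Python 3.11.15 with pandas 2.3.3, numpy 2.4.6 and matplotlib 3.10.9.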

Additional observations from a re-analysis of the deposited data

Results flagged for a closer look

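The effect of AA differed between 24 h and 3 h for 3 genes, by the test of the difference itself (AA minus MS at 24 h, less the same at 3 h). In ein2-5 the difference was 0.54 on the log2 scale for SDH1-1, 0.33 for MPPalpha-1 and 0.32 for UCR1-1, and in WT it was 0.33 for UCR1-1. For all 4 the AA mean lay above the MS mean at 24 h and below it at 3 h. The difference for SDH1-1 in ein2-5 passed in all 19 alternatives, and the other 3 did not pass without several single libraries, as given with the results. Time is also the labelled batch, and the 2 cannot be told apart.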

How the results depend on the processing

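Counts below are genes of the 34 that passed, and no call changed its direction. At an adjusted p under 0.01 the counts at 24 h were 2 (ein2-5), 1 (WT) and 6 (averaged), and 1 at 3 h averaged. For AA by time they were 1 (ein2-5) and 0 (WT). For MS against untreated they were 0 in ein2-5 at 3 h and at 24 h and 0 in WT at 24 h, for 24 h against 3 h in MS 1 in WT, and for ein2-5 against WT with MS at 3 h 0. With only the libraries compared in the fit, AA against MS at 24 h gave 1 (ein2-5) and 7 (WT), AA by time 1 (ein2-5) and 0 (WT), MS against untreated 0 (ein2-5, 3 h) and 4 (WT, 24 h), 24 h against 3 h in MS 6 (WT), and ein2-5 against WT 0 with MS at 3 h and 1 with AA at 3 h. Without a count filter AA by time in WT gave 0, MS against untreated in WT at 24 h 1, and 24 h against 3 h in MS in WT 1. Without organelle genes AA by time in WT gave 0 and MS against untreated in ein2-5 at 3 h 0. DESeq2 gave 2 for AA by time in WT and 1 for ein2-5 against WT with AA at 24 h. The cause of these moves was not tested. With replicate number as a block, which the data did not pair, AA by time in WT and MS against untreated in WT at 24 h gave 0 each, and other counts stayed within 1.5 times. Leaving out 1 library, AA against MS at 24 h ranged from 1 to 8 in ein2-5, 1 to 7 in WT and 6 to 12 averaged, and from 1 to 3 at 3 h averaged. AA by time ranged from 1 to 4 in ein2-5 and 0 to 1 in WT. MS against untreated ranged from 0 to 2 in ein2-5 at 3 h and at 24 h, and in WT at 24 h. For 24 h against 3 h in MS the range was 0 to 2 in ein2-5 and 1 to 2 in WT, for the MS effect by genotype 0 to 1 at each time, and for ein2-5 against WT with MS 0 to 2 at 3 h and at 24 h. Depth limits SDH2-3, QCR7-2 and SDH1-2, all under 5 CPM.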
